A study of Drosophila melanogaster with 8 samples.

Results

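The Sox family of Drosophila melanogaster was examined in neural progenitor cells that lacked the transcription factor Asense. The members are the 8 genes whose symbol in the probe annotation is D (Dichaete), SoxN (SoxNeuro), Sox21a, Sox21b, Sox14, Sox15, Sox100B or Sox102F, out of 11907 named genes on the array. Each was represented by 1 probe, so no member could be checked against a separate probe.

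The cells were a mixed population of neuroblasts and ganglion mother cells from the ventral nerve cord of stage 11 embryos raised at 25 °C. Mutant cells were ase1/ase1. Control cells, called wild type in the labels, were ase1/FM7-KrGFP, so they carried the same allele over a balancer chromosome with a GFP marker, and the comparison was between homozygotes and heterozygotes. Each sample held 50 to 100 cells, whose cDNA was amplified by PCR before labelling, and mutant and control were hybridised together on 8 two-colour arrays. By source name the arrays formed 5 pairs of mutant and control, numbered 1, 3, 4, 5 and 6. Pairs 1, 4 and 5 had arrays a and b, averaged here to 1 value. The mutant carried Cy5 on 3 arrays (pairs 1 and 3) and Cy3 on 5 arrays (pairs 4, 5 and 6). Nothing in the labels ties a pair to separate embryos, so the p-values below cover the spread between pairs, which may be technical.

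Sox proteins bind DNA through an HMG box, which contacts the minor groove and bends the helix. In the fly embryo the group B members Dichaete and SoxNeuro act in the neuroectoderm, where they have overlapping roles in the formation of neuroblasts, and Dichaete also acts in the ventral midline and in segmentation. Asense is a basic helix-loop-helix factor of the achaete-scute complex made by neuroblasts, and the question put to the arrays was which transcripts change in its absence.

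All values are log ratios of mutant over control, read as log2. On that reading a value of 1 is a doubling and 0 is no difference. The direction is likely rather than stated: asense (ase) lay between -6.50 and -4.81 on all 8 arrays, in both dye orientations, so each ratio appears to have mutant on top. Values of exactly 0 were taken as not measured. Each array gave 8200 to 9276 measured probes of 14569. A feature, meaning a gene or a probe without a single gene name, was tested with limma when it was measured in at least 4 pairs, and called when its Benjamini-Hochberg adjusted p over all 8295 tested features was below 0.05. Limma called 1517 features (18.3%), of which 578 (6.97%) were higher in mutant cells and 939 (11.3%) lower. Centring each array on its measured median turned this to 805 higher and 707 lower. Without pair 5 limma called 597 features in all, without pair 4 it called 747 and without pair 1 it called 936.

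D and Sox14 rose in mutant cells, while SoxN and Sox21b did not pass the test. These 4 genes were measured on all 8 arrays and are the members measured in at least 4 pairs. The other 4 members were not tested. Limma called 2 of the 4 tested members, both higher, against 18.3% of all features called in either direction and 6.97% called higher. The median log ratio of the 4 tested members was 0.71, against -0.070 over all features tested. All 4 means lay above 0, as did 42.6% of all features tested, and no test of the family as a whole was made.

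Sox21a, a group B gene best known for its role in intestinal stem cells, was at exactly 0 on all 8 arrays. So were Sox15, a group F gene of sensory organ and wing development, and Sox100B, a group E gene known from the developing testis. These zeros carry no ratio, so nothing can be said of these 3 genes in either genotype. Exact zeros on all 8 arrays were found for 3490 probes (24.0%). Sox102F, the group D gene, had a value on 1 array, -0.58 on array 1b, and that single value has no replicate. Among all named genes, 60.2% were tested.

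D encodes Dichaete, which in the embryonic nerve cord is known as a factor of neuroectoderm and neuroblasts. Its log ratio in the pairs was 1.02, 0.77, 1.13, 1.41 and 2.21 for pairs 1, 3, 4, 5 and 6. All 5 pairs lay above 0, and pair 6 was the highest. The mean was 1.31 ± 0.55 (SD, n = 5 pairs), a 2.47-fold higher level in mutant cells if the scale is log2, with a limma adjusted p = 0.007532 and a 95% interval of 0.83 to 1.79. D ranked 79 from the highest of the 8295 features and 74 among the 578 called higher. Features above 0 in all their measured pairs made up 13.1% of those tested, so the shared sign alone is not rare. The spread of D between pairs was wide, with 80.8% of features having a smaller SD.

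Single arrays of D ran from 0.70 to 2.21, and 8 of 8 lay above 0. Of the 7059 probes measured on all arrays, 5.99% were above 0 on every array. The repeat arrays were close in pair 4, at 1.03 on array a and 1.23 on array b. They were 0.77 and 1.26 in pair 1. In pair 5 they were 0.70 and 2.13, a difference of 1.43 in size, which exceeded that of 93.9% of probes in this pair. D averaged 0.89 over the 2 pairs with the mutant in Cy5 and 1.58 over the 3 pairs with the mutant in Cy3. The limma dye term for D gave an adjusted p = 0.947 (0.1039 unadjusted), and each pair with the mutant in Cy3 lay above each pair with it in Cy5. For dye 0 of 8295 features passed, with 334 at an unadjusted p below 0.05. With 2 pairs against 3 this test has little power. Dye also cannot be told apart from the pairs that carried it, so a dye effect on D is not excluded. Neither orientation was tested alone.

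Sox14 encodes the group C Sox protein, known from work on metamorphosis as an ecdysone-induced factor needed for dendrite pruning in sensory neurons. Its pair values were 0.79, 1.83, 0.99, 0.98 and 0.44 for pairs 1, 3, 4, 5 and 6. All 5 pairs again lay above 0, with pair 3 the highest and pair 6 the lowest. The mean was 1.01 ± 0.51 (SD, n = 5), a 2.01-fold higher level on the log2 reading, with a limma adjusted p = 0.01431 and a 95% interval of 0.55 to 1.46. It ranked 149 among the 578 features called higher.

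All 8 arrays of Sox14 were above 0, from 0.14 to 1.83, but its repeat arrays disagreed in size. Pair 1 had 1.45 on array a and 0.14 on array b. Pair 5 had 1.69 on array a and 0.28 on array b. These differences exceeded those of 90.3% and 93.4% of probes in the same pairs, while pair 4 had 0.81 and 1.16. The call of Sox14 was narrow: without pair 5 the limma adjusted p was 0.05002 at a log ratio of 1.01, and with array b in place of array a in pairs 1, 4 and 5 it was 0.06919 at 0.77. Sox14 averaged 1.31 over the 2 pairs with the mutant in Cy5 and 0.80 over the 3 pairs with the mutant in Cy3. Its dye term had a limma adjusted p = 0.947 (0.2286 unadjusted), under the same limit as for D.

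D and Sox14 did not have the same high and low pairs. D was lowest in pair 3 and highest in pair 6, whereas Sox14 was highest in pair 3 and lowest in pair 6. With 5 pairs a correlation between them was not computed.

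**Figure D1:**
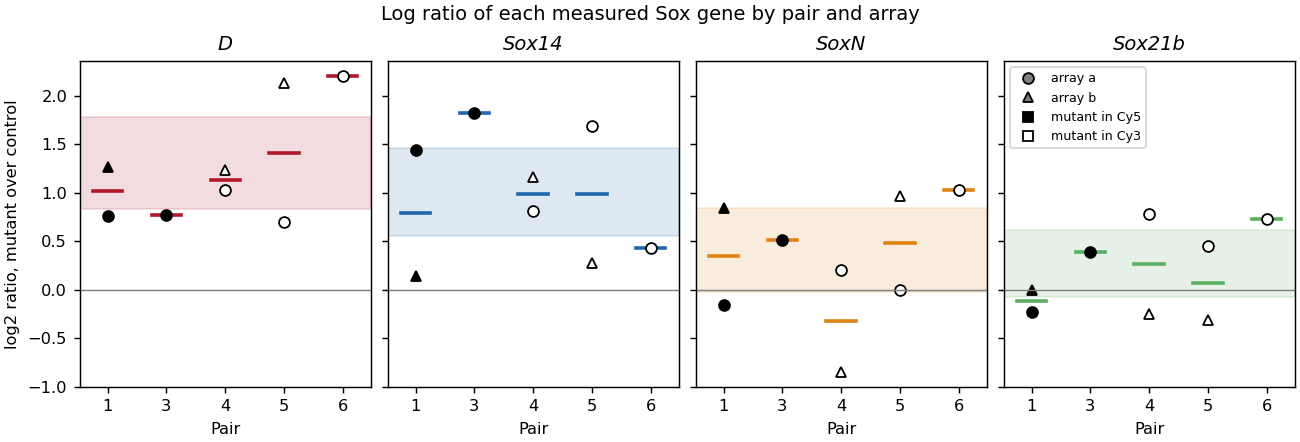
Log2 ratio of mutant over control (vertical axis) for D, Sox14, SoxN and Sox21b in each of the 5 pairs (horizontal axis). Circles are arrays a and triangles arrays b, black with the mutant in Cy5 and white with the mutant in Cy3; short bars are pair means and the shaded band is the 95% interval of the mean over pairs. D and Sox14 lie above 0 on all 8 arrays, while SoxN and Sox21b have arrays on both sides of 0.

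SoxN encodes SoxNeuro, the group B protein found across the early neuroectoderm. Its pair values were 0.35, 0.52, -0.32, 0.48 and 1.03 for pairs 1, 3, 4, 5 and 6, with 4 pairs above 0 and pair 4 below. The mean was 0.41 ± 0.48 (SD, n = 5), which did not pass the test (limma adjusted p = 0.157). The 95% interval of -0.025 to 0.85 holds both no difference and a sizeable increase, so the data do not show that SoxN was the same in both genotypes.

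The repeat arrays of SoxN differed in each of the 3 pairs that had them. In pair 1 array a gave -0.16 and array b gave 0.85. In pair 4 the order was turned, with 0.21 on array a and -0.85 on array b, and in pair 5 the values were -0.0058 and 0.97. Each of these 3 differences was about 1 on the log2 scale, from 0.98 to 1.06, against a median of 0.44 to 0.58 for all probes in the same pairs. On 5 of 8 arrays SoxN was above 0 and on 3 it was below. SoxN averaged 0.43 over the 2 pairs with the mutant in Cy5 and 0.40 over the 3 pairs with the mutant in Cy3.

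Sox21b, a group B gene that lies between Sox21a and D on chromosome arm 3L, had pair values of -0.12, 0.39, 0.27, 0.068 and 0.73 for pairs 1, 3, 4, 5 and 6. Its mean of 0.27 ± 0.32 (SD, n = 5) did not pass the test (limma adjusted p = 0.234), with a 95% interval of -0.079 to 0.61. Its arrays divided evenly, 4 above 0 and 4 below, from -0.32 to 0.78.

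Because D and SoxN have overlapping roles, the difference between their log ratios was taken within each pair. D exceeded SoxN in 5 of 5 pairs, by 0.67, 0.25, 1.45, 0.93 and 1.18 for pairs 1, 3, 4, 5 and 6, and on average by 0.90 ± 0.46 (SD, n = 5). An exact two-sided sign-flip permutation test gave p = 0.0625, which is the smallest that 5 pairs allow, so the threshold of 0.05 could not be reached. The difference between the 2 genes is therefore given as values only.

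**Figure D2:**
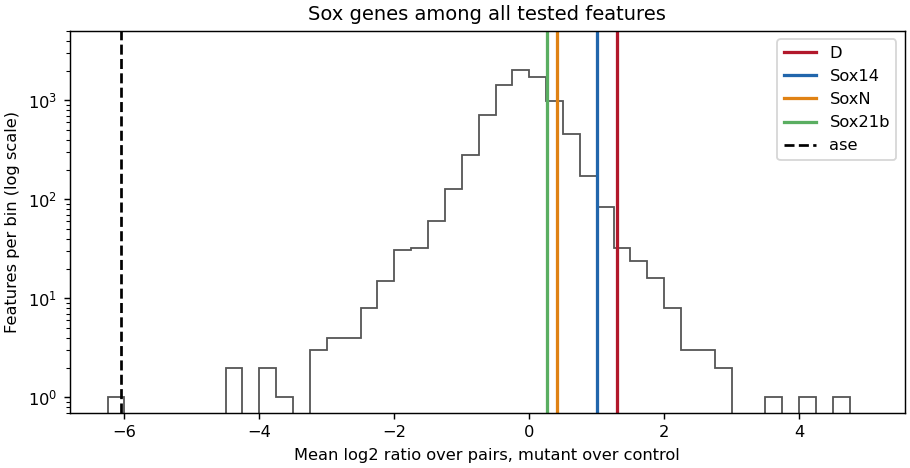
Number of features per bin of 0.25 (vertical axis, log scale) by mean log2 ratio of mutant over control (horizontal axis), for all 8295 tested features. Vertical lines mark D at 1.31, Sox14 at 1.01, SoxN at 0.41, Sox21b at 0.27 and, dashed, ase at -6.06; the Sox genes lie on the side above 0, D furthest out.

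Genes near the Sox genes on the chromosome were listed as the 3 nearest with a probe on each side. Around D on arm 3L, 4 of 6 neighbours were tested and 1 was called, and neither this count nor that around Sox14 stands out from the 18.3% called over all features. This was saturn, at -1.57 ± 1.01 (SD, n = 5, limma adjusted p = 0.01929), 2 genes away on the side opposite Sox21b and with the opposite sign to D. Its call was lost without pair 1 (limma adjusted p = 0.05579), pair 4 (0.05107) or pair 5 (0.05129). With array a only saturn was at -0.997 and lost its call (limma adjusted p = 0.205), against -2.14 with array b. The gene next to D on that side, nuf, which encodes a protein of recycling endosomes, was at 0.036. Around Sox14, 5 of 6 neighbours were tested and 1 was called, mr (-0.92, limma adjusted p = 0.02609), a subunit of the anaphase-promoting complex. The call of mr was lost without pair 4 (limma adjusted p = 0.07936) or pair 5 (0.06223). It was also lost with array a only (-0.68, limma adjusted p = 0.1744), against -1.17 with array b. Around SoxN, 1 of 6 neighbours was tested, CG32987 at -0.49, and limma did not call it (adjusted p = 0.07678). Without pair 4 it was at -0.66 and was called (limma adjusted p = 0.03638). No other tested neighbour of D or Sox14 passed apart from saturn and mr.

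The genes whose pair values lay nearest to those of D were Jhbp2, Sf3b1 and Cad74A, by the root-mean-square difference over the 5 pairs among 6570 named genes measured in all pairs. That difference was 0.27 for Jhbp2, 0.28 for the splicing factor gene Sf3b1 and 0.29 for the cadherin gene Cad74A, and their mean log ratios were 1.29, 1.15 and 1.15. For SoxN the nearest were Galk, which encodes galactokinase (0.14), the phosphatase gene Fcp1 (0.16) and noi (0.16), with mean log ratios of 0.36, 0.34 and 0.35. The search said nothing of shared function or control.

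Genes known to act with Dichaete or SoxNeuro, or to depend on them or bind beside them, were counted from a list of 38, of which 29 were tested. Of these 2 rose and 5 fell, 22 did not pass, and the median was -0.21, against -0.070 for all features, of which 6.97% were called higher and 11.3% lower. The list's counts are near those shares and are read as no more than a description. The POU-domain gene pdm2, a temporal factor of neuroblasts, rose, at 1.52 ± 0.51 (SD, n = 5, limma adjusted p = 0.003638), and was between 0.88 and 2.14 in the pairs. The receptor gene Egfr rose too (0.66 ± 0.50, adjusted p = 0.04839 in limma), with single pairs from 0.043 to 1.34. The temporal factor genes hb (-0.17), Kr (-0.0058), cas (-0.38) and grh (-0.68), also on the list, did not pass. Neither did nub (0.29), another POU-domain gene. Asense itself was among the 5 that fell. It is the mutated gene, and its fall set the direction of the ratios, so its call is no separate result.

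The other 4 that fell were the differentiation factor gene pros (-1.27), the nuclear receptor gene svp (-0.96), the adaptor gene mira (-0.69), which carries Prospero protein into the ganglion mother cell, and the neuronal RNA-binding protein gene elav (-0.67). The call of Egfr was lost without pair 1, 3, 4 or 5, that of elav whichever single pair was left out, and that of mira without pair 4 or 5, while pdm2, pros and svp kept theirs whichever pair was left out. Apart from those of ase and pros, these list calls each depended on the repeat array used. With array a only pdm2 was at 0.93 and lost its call (limma adjusted p = 0.1855), against 2.11 with array b, and with array b svp was at -0.60 and lost its call (0.2116), against -1.32 with array a. Egfr (0.58, limma adjusted p = 0.2227) and mira (-0.46, 0.09279) also lost theirs with array a only. The call of elav was lost with array b (-0.68, limma adjusted p = 0.1224). Members not past the test with the largest sizes were the pair-rule and neuronal homeobox gene eve (-0.96), the dorsal column gene Dr (-0.74), also called msh, and the proneural gene ac (0.72). Within the achaete-scute complex, ac ran from -0.13 in pair 5 to 1.87 in pair 6. Its members sc (-0.21) and l(1)sc (0.081) did not pass either. The intermediate column gene ind was measured in 1 pair and not tested, and the medial column gene vnd and the midline regulator sim were not analysed here.

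Of a list of 14 other genes with an HMG box, 9 had a named probe here and 6 were tested. Of these 1 rose and 2 fell, 3 did not pass, against 6.97% called higher and 11.3% lower over all features, and the median was 0.19, against -0.070 over all features. Ssrp, a subunit of the histone chaperone FACT, rose at 1.04 ± 0.40 (SD, n = 5, limma adjusted p = 0.007976), with pairs from 0.65 to 1.59. The repressor gene capicua (cic) fell by 0.64 ± 0.25 (limma adjusted p = 0.0182), a call lost without pair 1 or pair 4. That call was also lost with array a only (-0.57, limma adjusted p = 0.1432). The piRNA pathway gene mael fell by 1.57 ± 0.62 (limma adjusted p = 0.005054). The chromatin remodeller subunit gene polybromo (0.49), Hmg-2 (0.28) and the mitochondrial factor gene TFAM (0.0998) did not pass. The means of the 4 tested Sox genes were all above 0, as were those of Ssrp, polybromo, Hmg-2 and TFAM, while cic and mael lay below. Among the Sox genes SoxN and Sox21b did not pass. A difference between the Sox genes and this list was not tested.

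**Figure D3:**
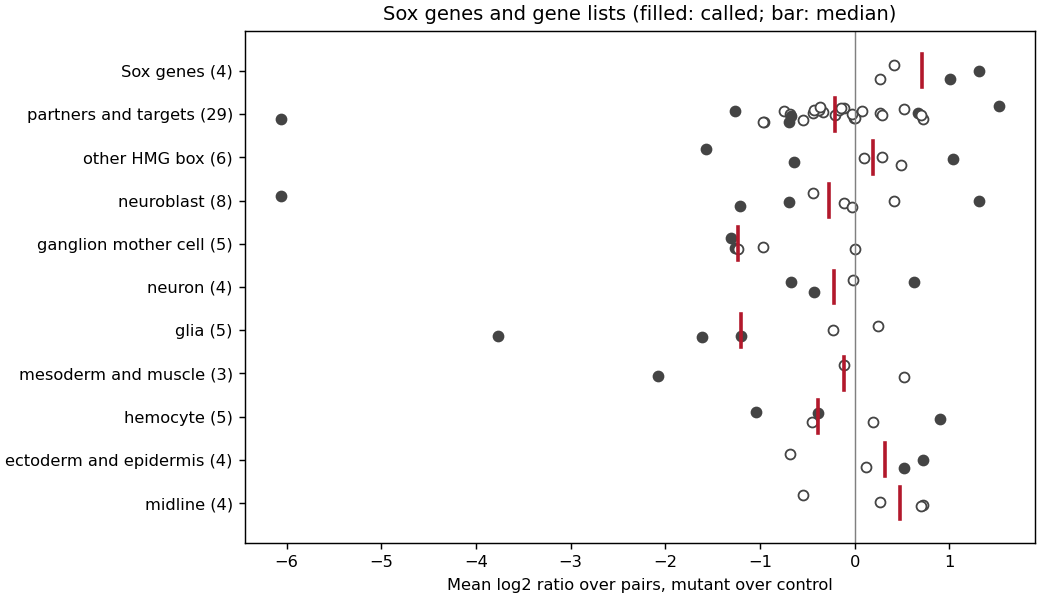
Mean log2 ratio of mutant over control (horizontal axis) for the 4 tested Sox genes and the tested members of each gene list (rows, number tested in brackets). Filled points are called by limma, open points are not, red bars are medians, and vertical scatter within a row has no meaning; the Sox genes have a median of 0.71, and the ganglion mother cell and glia rows lie furthest below 0, at -1.23 and -1.20.

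Markers of the labelled cells and of other cells moved in these same pairs, and since each sample was RNA from many cells, fewer cells of a type and less RNA per cell cannot be told apart. An array of ratios gives no level, so the labelled cell types could not be checked for presence, only for change. The marker counts that follow stand beside 6.97% of all features called higher and 11.3% called lower. Of 8 tested neuroblast markers, which include D and SoxN, limma called 1 higher (D) and 3 lower (ase, klu at -1.21 and mira), while dpn (-0.44) and wor (-0.11) did not pass. The calls of ase, the mutated gene, and of D, the gene under study, add nothing separate to this count. Of 5 ganglion mother cell genes 2 fell, pros and nerfin-1 (-1.31), and Hey (-1.23), eve and ftz (-0.0012) did not pass. Of 4 neuronal genes 1 rose (acj6, 0.63) and 2 fell (elav and Appl, -0.43), with fne at -0.022. Of 5 glial genes 3 fell, gcm (-3.77), Gs2 (-1.61) and repo (-1.20), with nrv2 (0.25) and loco (-0.23) not past the test. The midline, where D is also expressed, had 4 tested genes and 0 calls in limma. Its median was 0.48, against -0.070 over all features, and ran from -0.046 to 1.13 between pairs. The largest there were Tl (0.72), btl (0.70) and vvl (-0.55), with limma adjusted p of 0.05311, 0.1277 and 0.0802. Of 4 ectodermal genes, with a median of 0.32, 2 rose, pyd (0.72) and crb (0.52), with grh (-0.68) and sdt (0.12) not past the test. Of 3 mesodermal genes 1 fell, lmd (-2.08), with sna (0.52) and twi (-0.11) not past it. Of 5 hemocyte genes 1 rose (Tig, 0.90) and 2 fell, crq (-1.05) and Hml (-0.39), with srp (-0.45) and ush (0.20) not past it. Among these marker calls, those of klu, Appl, acj6, repo, Gs2, lmd, Hml, Tig, crb and pyd were lost when at least 1 of the pairs was left out, and those of nerfin-1, gcm and crq were kept. The pairs of gcm ran from -6.31 to -1.07 (SD 2.22, n = 5), and its call was lost with array a only (-3.26, limma adjusted p = 0.117) and with exact zeros kept as values (0.06793). With array a only Gs2 also lost its call (-1.43, limma adjusted p = 0.1577) and repo was not tested. In that setting 0 glial genes were called. Calls were gained by eve without pair 6, by grh and Tl without pair 1 and by vvl without pair 5, with limma adjusted p of 0.0322 for eve, 0.04665 for grh, 0.03313 for Tl and 0.04089 for vvl. With array a only dpn was at -0.78 and eve at -1.23, and both were called (limma adjusted p of 0.0483 for dpn and 0.04649 for eve), while with array b dpn was at -0.093. With array b sna was at 0.83 and was called (0.03998). The midline genes Tl (0.93, limma adjusted p = 0.02085) and vvl (-0.855, 0.03325) were also called with array b. Tl was called as well after centring (0.80, limma adjusted p = 0.03845) and with the pair as a random effect (0.57, 0.0453). The part of any of these shifts in the log ratios of D and Sox14 was not tested.

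Under 17 other settings, all but the reading of the ratios as Cy5 over Cy3, D ran from 1.08 to 1.52 and was called in 16. The choices of filter, zeros, moderation and probe averaging could not move the log ratios of the tested Sox genes. These have a single probe each and a value on every array, so only their adjusted p could change there. Sox14 ran from 0.77 to 1.24 and was called in 14, and both calls were lost in ordinary tests without moderation (adjusted p = 0.06311 for D and 0.08233 for Sox14). SoxN ran from 0.26 to 0.59 and Sox21b from 0.11 to 0.42, and limma called each in 0 of the 17. The lowest limma adjusted p for SoxN among them, 0.07177, came without pair 4, the pair in which SoxN was below 0.

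**Figure D4:**
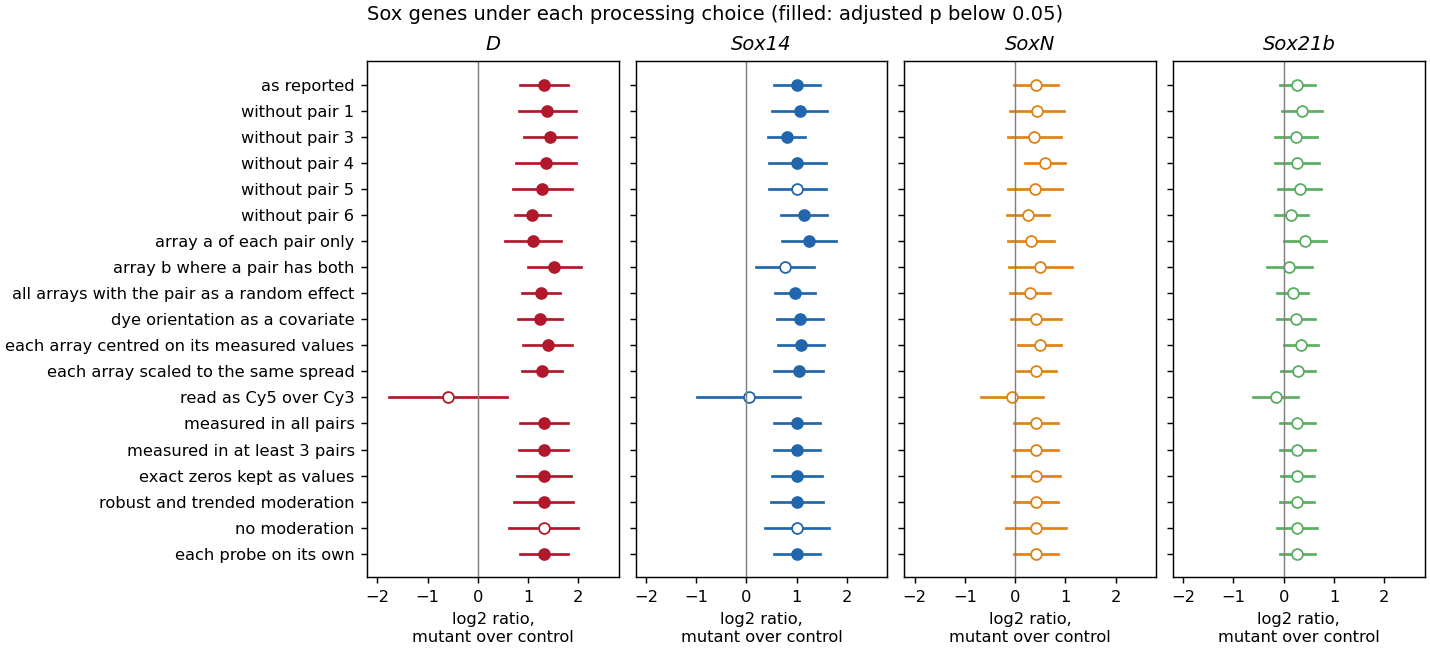
Mean log2 ratio of mutant over control (horizontal axis) with its unadjusted 95% interval for D, Sox14, SoxN and Sox21b, as reported and under 18 other settings (rows). Filled points have an adjusted p below 0.05; D is open under no moderation and under the Cy5 over Cy3 reading, Sox14 also without pair 5 and with array b, and SoxN and Sox21b in every row.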

How the data were processed

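RNA of mutant and control cells was compared on 8 two-colour arrays. The deposited values are log ratios per probe, read as log2. How the authors normalized, scaled or centred them, their log base and their direction were not stated. A log10 scale allows at most 4.82 on a 16-bit scan and the largest size was 7.43; a natural log is possible and would make folds larger. Each column's median was 0.0 with the exact zeros included, which made up 36.3 to 43.7% of each array, so it does not show that the arrays were centred. The medians of the measured values alone ran from -0.18 to -0.025. Depth does not apply to arrays, and their number limits the precision.

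Probe names came from the platform annotation, updated through a gene table of assembly Release 6 plus ISO1 MT, used only for names, arms and neighbours. Of 14569 probes 12657 had 1 symbol, 96 several and 1816 none, and 12011 matched by gene identifier. Probes of a gene were averaged per array, then arrays of a pair. The mean was tested against 0 with lmFit and eBayes (limma 3.58.1, R 4.3.3). In shifts set into simulated data for mutant against control with 8295 features, the test recovered 63 of 100 of size 1 and 95 of 100 of size 2, and called 10 of 8095 unshifted features. There the noise was normal and independent between features. The share of shifted features was far below the 18.3% called in the data, so these rates need not hold for the data. When 1 pair was left out, 3 measured pairs sufficed.

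The members, lists and settings were chosen with earlier results of these data known, so patterns already seen are no independent support. Named are all members, every list member past the test, up to 3 of each list with the largest size that did not pass, and the 3 genes nearest to D and to SoxN. Some neighbours and further list members are named beside these. No sequences were used, and cross-hybridisation among Sox probes was not examined. The alternatives changed the pairs, repeat arrays, dye, centring, scaling, direction, filter, zeros, moderation and probe averaging.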

Additional observations from a re-analysis of the deposited data

Results flagged for a closer look

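In 2 of 59 sets of pair values examined, those of the tested Sox genes and most other named genes, the highest or lowest pair stood apart. The nuclear receptor gene svp was at -1.49 in pair 6, its closest other pair being -0.93. CG32987, the tested neighbour of SoxN, was at 0.20 in pair 4, its closest other pair being -0.57. Chance flags about 1 in 20, which is 2.95 of 59. No Sox gene was among them.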

How the results depend on the processing

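The 4 tested Sox genes kept their sign in 17 of 18 other settings. Changes of filter, zeros, moderation and probe averaging could not alter those signs. Read as Cy5 over Cy3, which turns the sign of pairs 4, 5 and 6, limma called 0 features (adjusted p of 0.9991 for each tested Sox gene) and 0 Sox genes, with D at -0.59, SoxN at -0.066, Sox21b at -0.16, Sox14 at 0.043 and D minus SoxN at -0.53. Under that reading ase would lie above 0 on the 5 turned arrays. Without moderation 466 features and 0 Sox genes were called, with D at 1.31 and Sox14 at 1.01. With array a only 474 features were called. With array b 1 Sox gene was called, and Sox14 was at 0.77. Leaving out 1 pair at a time gave 597 to 1309 called features, 1 to 2 called Sox genes, 0.80 to 1.15 for Sox14, 1.08 to 1.44 for D and 0.76 to 1.06 for D minus SoxN. The cause of these changes was not tested. Of 23 named list genes called, 3 (ase, pros and crq) were called in each setting tried for them, 20 were not called in some setting, and the sign changed for 0. Uncalled genes near 0 changed sign. With array b wor was at 0.31, ftz at 0.68, twi at 0.036, nuf at -0.0041 and sdt at -0.23. With array a TFAM was at -0.0095 and fne at 0.086. After centring ftz was at 0.077 and fne at 0.044, with a dye term ftz was at 0.061, and with the pair as a random effect at 0.024. Leaving out 1 pair gave wor -0.28 to 0.051, ftz -0.24 to 0.28, fne -0.095 to 0.026, twi -0.42 to 0.24, nuf -0.21 to 0.33 and sdt -0.10 to 0.29. Signal over background was not used here, so dim probes could not be told from bright ones.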
